A study of Rattus norvegicus with 12 samples.

Results

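Heat shock proteins and their co-chaperones were followed through the first 6 h of exposure of rat astrocytes to PT109B. The genes were chosen by name from the deposited table: symbols beginning with Hspa, Hspb, Hspd, Hspe, Hsph, Hsp90, Dnaja, Dnajb or Dnajc, or with Bag and a digit, whose annotated process was none of DNA repair, DNA replication, RNA splicing and cilium morphogenesis. The rule found 42 of the 9721 genes in the table, and all 42 passed the filter on low counts. They comprised 5 genes of the Hsp70 family, 3 of the related Hsp110 family, 2 Hsp90 genes, 1 chaperonin gene, 3 small heat shock protein genes, 23 J protein genes (1 of class A, 8 of class B and 14 of class C), 3 BAG genes and 2 others. A further 4 genes matched by symbol and were left out by their annotated process, among them Hspa1a and Hspa8. Hspa1b, Hspa5, Hsp90ab1 and Hspd1 were not in the table, so nothing is known of them here. The cells were wild-type primary astrocytes from the midbrain of newborn SD (Sprague-Dawley) rats, cultured in medium with fetal bovine serum. All groups came from such cultures: a control group at 0 h and groups exposed to 10 µM PT109B, a small molecule known here by its code name, for 1.5, 3 or 6 h, with 3 libraries each. The series is titled as work on converting astrocytes to dopaminergic neurons, and its design allows each time to be set against the control at 0 h. No untreated or vehicle group at 1.5, 3 or 6 h is labelled. Effects of PT109B therefore cannot be told apart from those of time in culture or handling. Whether replicate libraries derive from separate cultures, and whether animals were pooled, is not stated in the labels, so the p-values cover only how much these libraries vary, possibly for technical reasons.

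Heat shock proteins bind unfolded or partly folded proteins and let them fold, cross membranes or be degraded. Hsp70 proteins do this in cycles of ATP hydrolysis: J proteins, also called Hsp40, deliver clients and start the hydrolysis, and nucleotide exchange factors of the Hsp110 and BAG families release the client. Hsp90 proteins act later, on signalling proteins near their native form, small heat shock proteins hold clients without using ATP, and the Hsp60 chaperonin with its Hsp10 lid folds proteins inside mitochondria. Many of the genes are switched on by heat shock factor 1 at heat shock elements, which are inverted repeats of GAA, while chaperones of the endoplasmic reticulum answer to the unfolded protein response. In the brain, astrocytes are known as a main site of small heat shock protein expression.

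The promoters of 6 members that carry the letters of a heat shock element are shown first, picked because most of these genes take part in the pattern described below. That choice was made from 11 such members with the values known. Dnaja1, which holds the longer form and fell at 6 h, is not printed. Hspb1 is printed but did not split the 3 h libraries, and Hspa4, part of the pattern, held no match. Whether the element has a part in any change was not tested. Windows of 250 bases before to 50 bases after the start of each gene were taken from RefSeq (build GRCr8), in which 38 of the 42 members matched by symbol. The stretch printed is the 140 bases directly before the start, 5′ to 3′ on the gene's strand, and capitals mark GAANNTTC or TTCNNGAA, including runs where matches overlap.
Bag3 (chr1:192533320-192533459, plus strand): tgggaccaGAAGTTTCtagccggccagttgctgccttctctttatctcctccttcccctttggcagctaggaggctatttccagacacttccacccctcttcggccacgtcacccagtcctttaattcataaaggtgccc
Hsph1 (chr12:10427228-10427367, plus strand): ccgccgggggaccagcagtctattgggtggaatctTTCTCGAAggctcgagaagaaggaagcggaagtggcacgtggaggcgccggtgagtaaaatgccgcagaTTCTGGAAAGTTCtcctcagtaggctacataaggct
Dnajb1 (chr19:41431142-41431281, minus strand): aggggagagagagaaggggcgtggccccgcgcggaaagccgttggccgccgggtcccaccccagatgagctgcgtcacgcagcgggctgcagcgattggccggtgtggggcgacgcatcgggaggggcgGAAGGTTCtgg
Hspe1 (chr9:64084187-64084326, plus strand): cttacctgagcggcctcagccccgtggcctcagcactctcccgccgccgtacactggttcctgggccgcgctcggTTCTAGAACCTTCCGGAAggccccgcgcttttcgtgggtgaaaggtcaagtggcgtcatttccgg
Hspb1 (chr12:26432302-26432441, minus strand): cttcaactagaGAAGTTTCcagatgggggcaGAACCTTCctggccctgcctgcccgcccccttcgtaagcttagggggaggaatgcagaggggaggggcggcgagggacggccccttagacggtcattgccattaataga
Hspb8 (chr12:45837168-45837307, plus strand): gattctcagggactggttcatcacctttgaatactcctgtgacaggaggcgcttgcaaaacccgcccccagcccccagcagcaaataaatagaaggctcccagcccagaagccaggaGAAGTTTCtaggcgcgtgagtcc

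On both strands, 11 of the 38 member windows (28.9%) held GAANNTTC or TTCNNGAA, against 15.8% of all 33465 windows. The longer form of the heat shock element, with 3 alternating units of GAA and TTC in a row at the same spacing, contains the shorter ones and was found in the windows of Dnaja1, Hspe1 and Hsph1 (7.89% of 38) and in 0.798% of all windows. The other 8 windows with the shorter form were those of Bag3, Dnajb1, Hspa2, Hspa4l, Hspa9, Hspb1, Hspb6 and Hspb8. In Dnajb1 the upstream match began 11 bases before the start, and in Bag3 132 bases before it. Of other motifs, TGACGTGG was in 3 member windows (Bag2, Bag3 and Dnajb3), TGATGNAA in 2 (Hspa14 and Hspa9), CCAAT in 13 and TGACGTCA in 0, against 0.595%, 3.98%, 37.5% and 1.83% of all windows. A match describes letters only, and the series measured no binding.

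Levels below are CPM (counts scaled to TMM-adjusted library size), and total counts were 9368967 to 12498047 per library. The control libraries were alike, with correlations across genes of 0.985 to 0.992 on the log scale. In each treated group 2 libraries did too (0.990 to 0.991), and 1 stood apart from them (0.897 to 0.945): replicate 3 at 1.5 h, replicate 3 at 3 h and replicate 1 at 6 h. The 17 microglia markers in the table summed to 370 and 363 CPM in replicates 1 and 2 at 1.5 h and to 3813 in replicate 3, against 2954 to 3603 in the controls. The 20 markers of dividing cells summed to 158 and 138 CPM in replicates 1 and 2 at 3 h and 122 and 142 in replicates 2 and 3 at 6 h, against 1236 in replicate 3 at 3 h, 1194 in replicate 1 at 6 h and 1616 to 2193 in the controls. The 10 markers of fibroblasts and meninges summed to 8755 to 13097 CPM in the 6 treated libraries that resembled each other within their groups, against 4677 to 5287 in the 3 others and 4545 to 6066 in the controls. The 10 neuronal markers summed to 1096 to 1456 CPM in these libraries at 3 and 6 h, and to 437 to 605 elsewhere. Their median log2 fold change against control was nonetheless −0.32 at 3 h and −0.46 at 6 h. With edgeR only Tubb3 among them was called, higher at both times, so the sums do not stand for the neuronal markers in general. The 12 astrocyte markers in the table, Gfap and Aqp4 among them, summed to 6507 to 12572 CPM over all libraries, so markers of the labelled cell type were present in each. The 11 oligodendrocyte lineage markers summed to 910 to 943 CPM in the controls, 983, 1037 and 872 at 1.5 h, 1294, 1332 and 825 at 3 h and 853, 1145 and 1161 at 6 h, lowest in the library that stands apart in each treated group, and Mag and Gpr17 had a count of 0 in at least 1 library. In bulk RNA, fewer cells of a type and less RNA per cell cannot be told apart, and the part of these libraries' makeup in the results was not tested.

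Few members changed at 1.5 h and more at later times. With edgeR's quasi-likelihood test, adjusted over all 9491 genes tested and called at an adjusted p below 0.05, 2 members rose at 1.5 h, Dnajb5 and Hspb1 (4.76% of 42, where 1.95% of all genes rose), and 0 fell (1.37% of all genes fell). Without adjustment 3 members passed as lower at p below 0.05, and DESeq2 called 3 members higher and 2 lower. At 3 h, 4 members rose (9.52%, where 13.5% of all genes did) and 6 fell (14.3%, where 7.94% of all genes did). At 6 h, 7 rose (16.7%, against 18.7% of all genes) and 10 fell (23.8%, against 11.8%). DESeq2 called 9 members higher and 6 lower at 3 h, beside 1691 and 1079 of the 9491 genes. At 6 h it called 8 higher and 10 lower, beside 2072 and 1500. The median log2 fold change of the 42 members was 0.08, 0.19 and 0.18 at 1.5, 3 and 6 h, beside −0.01, −0.03 and −0.02 for all genes. Across the 3 times 19 members were called at least once, 9 of them at both 3 and 6 h in the same direction, and 23 at none.

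The share of genes called higher or lower depends on how libraries are scaled. Scaling to library size moved the median of all genes to −0.09, −0.34 and −0.24 at 1.5, 3 and 6 h, and of all calls at these times 43.3%, 25.6% and 38.8% were then higher, against 58.7%, 62.9% and 61.3% with TMM scaling. The median of the 42 members moved to 0.006, −0.13 and −0.05, so its sign at 3 and 6 h depends on the scaling. With library size scaling 2 members rose at 3 h (4.76%, beside 6.85% of all genes) and 12 fell (28.6%, beside 19.9%), and at 6 h 3 rose (7.14%, beside 12%) and 12 fell (28.6%, beside 19.0%). All 29 calls of members against control kept their direction under that scaling. Without the 3 libraries that stand apart, members rising and falling numbered 15 and 8 at 1.5 h, where 28.7% and 30.5% of all genes did so, 20 and 11 at 3 h, where 31.4% and 39.6% did, and 17 and 14 at 6 h, where 33.3% and 41.8% did. Leaving out 1 library at a time changed the counts as well. At 1.5 h, 0 members were called without any 1 of the 3 controls or without replicate 1 or 2 of the treated group (5 to 7 members passed unadjusted), and 8 without replicate 3. At 3 h, 3, 4 and 5 members were called without control replicates 1, 2 and 3, 5 without treated replicate 1 or 2, and 19 without treated replicate 3. At 6 h, 10, 11 and 10 were called without control replicates 1, 2 and 3, and 18, 15 and 12 without treated replicates 1, 2 and 3.

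**Figure D1:**
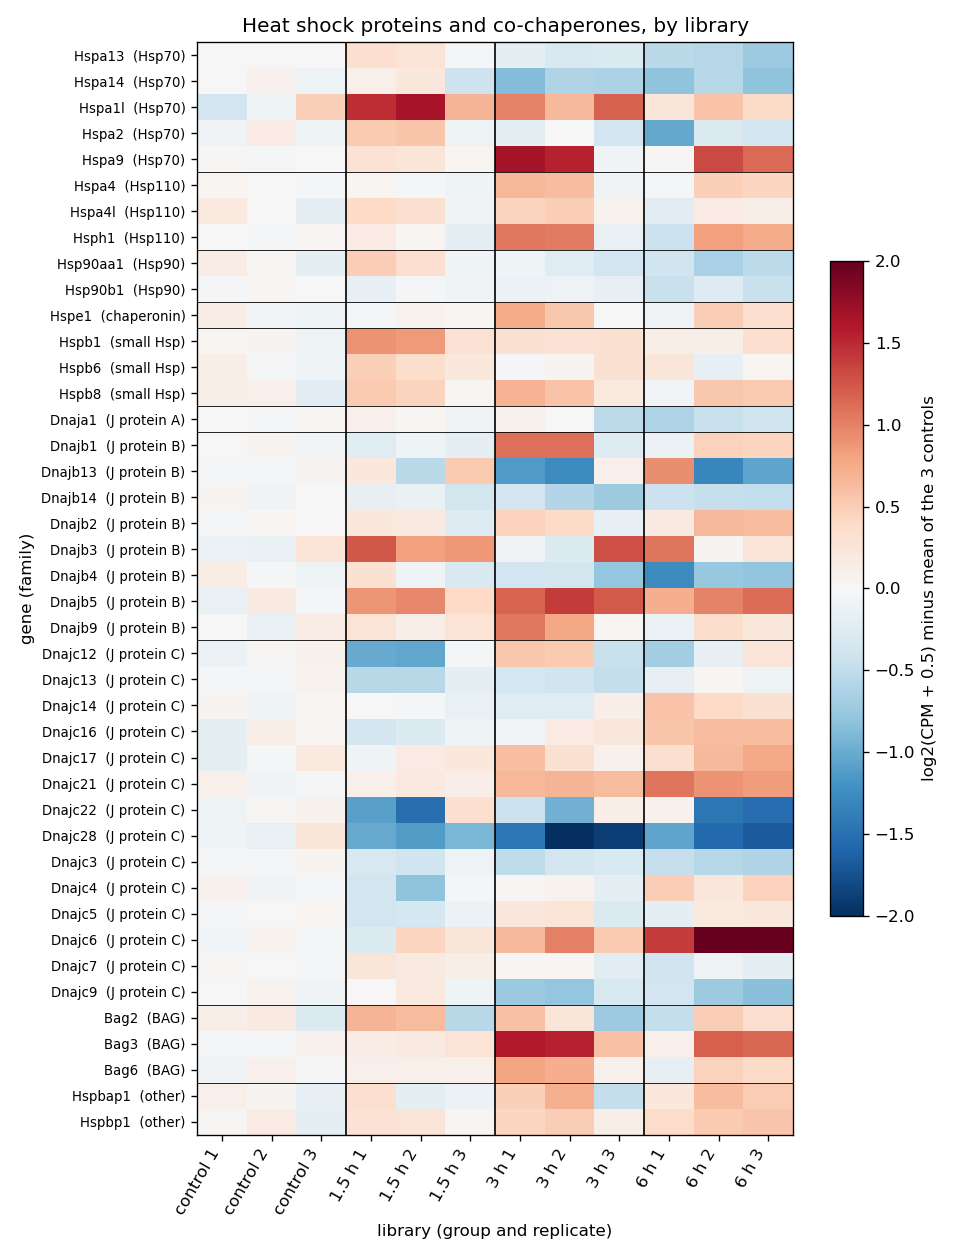
Each row is a member gene with its family and each column a library; colour shows log2(CPM + 0.5) minus the mean of the 3 control libraries, with the scale ending at −2 and 2. Hspa9, Hsph1, Dnajb1 and Bag3 are red in replicates 1 and 2 at 3 h and replicates 2 and 3 at 6 h and paler in the remaining library of each group, while Dnajb5 is red and Dnajc28 blue in all libraries of the 3 h group.

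A group of members, picked here after their values were seen, split the 3 h and the 6 h libraries. They span the mitochondrial and the cytosolic machinery. Hspa9, the Hsp70 of mitochondria that pulls in and folds imported proteins, stood at 637, 622 and 629 CPM in the controls and 766, 743 and 646 at 1.5 h. At 3 h it stood at 1996 and 1827 CPM in replicates 1 and 2 and at 601 in replicate 3, and at 6 h at 1567 and 1384 in replicates 2 and 3 and at 638 in replicate 1. Replicate 3 at 3 h lay below every control and replicate 1 at 6 h just above them, so the difference from control did not pass edgeR's test (log2 fold change 1.23 ± 0.41 (SE) with edgeR adjusted p = 0.0562 at 3 h, and 0.93 ± 0.41 with adjusted p = 0.108 at 6 h). DESeq2 called Hspa9 higher at 3 h (adjusted p = 0.0144). Without the 3 libraries that stand apart the log2 fold changes of Hspa9 were 1.54 (edgeR adjusted p = 2.15e-10) and 1.14 (adjusted p = 7.34e-09). The genes of this group were picked for their split, so such p-values, here and below, are no independent evidence of a rise. In that fit 31.4% and 33.3% of all genes were called higher at 3 and 6 h, and 39.6% and 41.8% lower. Hspe1, the Hsp10 lid of the mitochondrial chaperonin, had the same layout: 53.6, 46.6 and 45.7 CPM in the controls, 47.1, 50.7 and 49.6 at 1.5 h, 81.6, 70.4 and 48.4 at 3 h and 46.2, 68.6 and 61.1 at 6 h. Its log2 fold change was 0.46 ± 0.19 at 3 h (edgeR adjusted p = 0.109), and 0.58 without the libraries that stand apart (adjusted p = 0.000109), which at 6 h gave 0.33 (adjusted p = 0.00858).

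**Figure D2:**
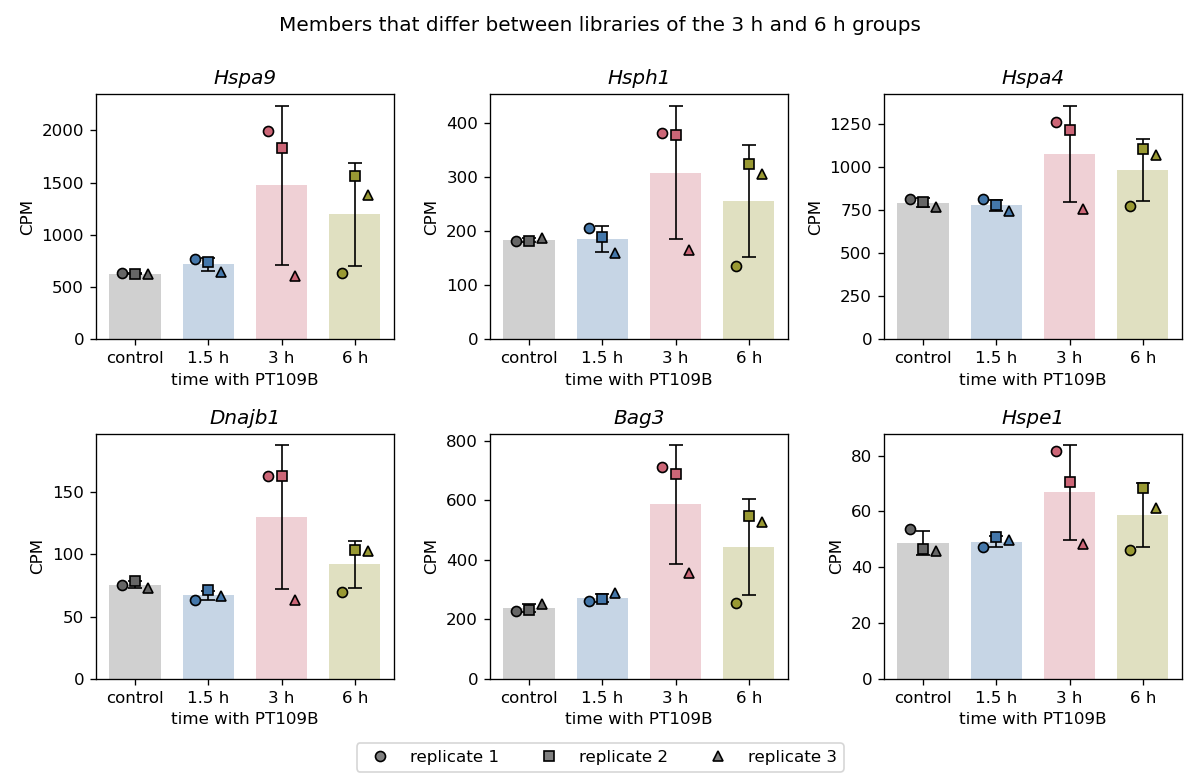
Bars show the mean CPM of each group, error bars the SD over 3 libraries and points the libraries by replicate for Hspa9, Hsph1, Hspa4, Dnajb1, Bag3 and Hspe1. Replicate 3 at 3 h (except for Bag3) and replicate 1 at 6 h lie near or below the control level, while the other libraries of these groups lie above it. For Hspa9 the values at 3 h are 1996, 1827 and 601 CPM. For Bag3 they are 713, 688 and 357 CPM, all above the controls.

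All 3 Hsp110 genes, whose proteins exchange the nucleotide of Hsp70, were not called with edgeR or DESeq2 at any time. Without the libraries that stand apart all 3 rose at 3 h, Hspa4 and Hsph1 rose at 6 h and Hspa4l at 1.5 h. Of all genes, 31.4%, 33.3% and 28.7% rose in that fit at 3, 6 and 1.5 h. Hsph1 (Hsp105) stood at 183, 181 and 187 CPM in the controls, 207, 190 and 160 at 1.5 h, 382, 378 and 166 at 3 h, and 137, 324 and 306 at 6 h. At 3 and 6 h the lowest library of each group lay under all controls and the other 2 lay above them. Its log2 fold change at 3 h was 0.75 ± 0.35 (edgeR adjusted p = 0.137), and 0.99 without the libraries that stand apart (adjusted p = 6.89e-09). Hspa4, the most abundant of the family in CPM, stood at 817, 796 and 769 in the controls, 1263, 1214 and 756 at 3 h and 775, 1106 and 1069 at 6 h. Its 3 libraries at 1.5 h (812, 779 and 747 CPM) overlapped with the controls. Hspa4l, a close relative, ranged from 111 to 145 CPM in the controls and from 109 to 179 in the treated libraries, with log2 fold changes of 0.23 ± 0.17, 0.34 ± 0.17 and 0.02 ± 0.17 at 1.5, 3 and 6 h. Without the libraries that stand apart the 3 h values of Hspa4 and Hspa4l were 0.58 and 0.40 (edgeR adjusted p = 4.10e-06 and 0.00110), and at 6 h Hspa4 and Hsph1 stood at 0.37 and 0.69 (adjusted p = 0.000313 and 3.72e-07). In the fit of all libraries 0 of the 3 passed unadjusted.

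Bag3 was the member of this group that passed the test. BAG3 protein releases clients from Hsp70 and, together with Hspb8, steers them to autophagy. Bag3 stood at 230, 230 and 253 CPM in the controls and at 262, 268 and 287 at 1.5 h, when the groups did not overlap but the difference was not called (log2 fold change 0.20 ± 0.30). At 3 h it stood at 713, 688 and 357 CPM, all above the controls, and rose by 1.30 ± 0.30 (edgeR adjusted p = 0.0144). At 6 h it stood at 256, 546 and 527 CPM and rose by 0.90 ± 0.30 (edgeR adjusted p = 0.0430), with replicate 1 only just above the highest control. The call at 3 h was lost without control replicate 1 or 2 or without treated replicate 1 or 2, with edgeR adjusted p of 0.00266 to 0.0590 when 1 library was left out. The call at 6 h was lost without any 1 control or without treated replicate 2 or 3 (0.00549 to 0.174), with library size scaling (0.0583), scaling by depth (0.0531), no filter (0.0509) and the replicate block (0.0714), and with both forms of limma-trend (0.0698 and 0.0701).

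Dnajb1, the classical Hsp40 that starts ATP hydrolysis by Hsp70, stood at 75.8, 78.5 and 72.9 CPM in the controls, 63.7, 71.3 and 66.5 at 1.5 h, 163, 163 and 63.2 at 3 h, and 69.9, 104 and 102 at 6 h. All 3 libraries at 1.5 h lay below the controls, and replicate 3 at 3 h and replicate 1 at 6 h did as well. Against control the log2 fold change was −0.17 ± 0.30, 0.78 ± 0.30 and 0.28 ± 0.30 at the 3 times (edgeR adjusted p = 0.760, 0.0819 and 0.480, and 0.0483 with DESeq2 at 3 h), and at 3 h 1.05 without the libraries that stand apart (adjusted p = 1.08e-08). Bag6, whose product guards tail-anchored membrane proteins on their way to the endoplasmic reticulum, stood at 338, 381 and 351 CPM in the controls and 614, 591 and 379 at 3 h, a difference called by DESeq2 (adjusted p = 0.0337) but not by edgeR. Its counts were not whole numbers in 9 libraries, so reads may be shared with another gene and its values are uncertain.

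Of the remaining Hsp70 genes, Hspa13 and Hspa14 fell. Hspa13 (Stch), an Hsp70 of the endoplasmic reticulum, stood at 136, 135 and 134 CPM in the controls, 171, 164 and 132 at 1.5 h, 117, 109 and 110 at 3 h, and 93.1, 90.4 and 81.3 at 6 h. The 3 h and 6 h libraries all lay below the controls, and the libraries that stand apart at these times lay with the others of their group. Hspa13 fell by 0.61 ± 0.11 on the log2 scale at 6 h (edgeR adjusted p = 0.00260), and its value at 3 h was −0.26 ± 0.11 (adjusted p = 0.106). Hspa14, an Hsp70 that sits at ribosomes, stood at 46.7, 49.6 and 43.5 CPM in the controls, 25.2, 30.6 and 29.9 at 3 h and 26.5, 31.1 and 26.5 at 6 h, with no overlap. It fell by 0.71 ± 0.17 at 3 h (edgeR adjusted p = 0.0155) and by 0.73 ± 0.17 at 6 h (adjusted p = 0.00818). Its 3 h call was lost without control replicate 1 or 2 (highest edgeR adjusted p = 0.0594). Its counts were not whole in all 12 libraries, so reads may be shared with another gene.

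Hspa2, an Hsp70 best known from the testis, stood at 51.0, 60.1 and 50.4 CPM in the controls, 77.2, 78.7 and 50.1 at 1.5 h, 46.9, 53.1 and 41.2 at 3 h, and 26.2, 43.8 and 40.9 at 6 h. Its 6 h libraries lay below the controls, with a log2 fold change of −0.54 ± 0.22 that was not called (edgeR adjusted p = 0.0815). Hspa1l, another Hsp70 best known from the testis, was the lowest member in the controls, at 0.599, 0.857 and 1.50 CPM in the controls, 3.52, 4.0 and 1.81 at 1.5 h, 2.36, 1.76 and 2.75 at 3 h and 1.20, 1.64 and 1.37 at 6 h. The 1.5 h and control groups did not overlap, and the difference was called by DESeq2 (adjusted p = 0.0127) but not by edgeR (log2 fold change 1.66 ± 0.45, adjusted p = 0.0786). DESeq2 also called the 3 h difference (adjusted p = 0.0490). Hspa1l counts were not whole in 7 libraries, and it has near-identical relatives. One of them is Hspa1a, the main heat-inducible Hsp70 and outside the rule for members, which stood at 25.3, 27.6 and 29.6 CPM in the controls, 227, 213 and 190 at 1.5 h, 428, 384 and 80.4 at 3 h and 20.6, 131 and 125 at 6 h. Hspa1a rose by 2.93 ± 0.70 at 1.5 h (edgeR adjusted p = 0.0498) and 3.43 ± 0.71 at 3 h (adjusted p = 0.00879), and its lowest library at 3 h and at 6 h was the same as for Hspa9. Hspa8, the constitutive Hsp70 and also outside the rule, stood at 3013 to 5196 CPM across all libraries and was called at no time, with log2 fold changes of −0.33 ± 0.24, 0.08 ± 0.24 and −0.08 ± 0.24.

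Both Hsp90 genes among the members were lower at 6 h. Hsp90aa1, the inducible cytosolic Hsp90, stood at 1702, 1572 and 1365 CPM in the controls, 2156, 1936 and 1449 at 1.5 h, 1457, 1306 and 1177 at 3 h and 1167, 986 and 1070 at 6 h. Only the 6 h libraries all lay outside the control range, and Hsp90aa1 fell by 0.53 ± 0.18 (edgeR adjusted p = 0.0473). That call was lost without any 1 control or without treated replicate 2 or 3 (edgeR adjusted p of 0.0424 to 0.152). Its counts were not whole in 4 libraries. Hsp90b1 (Grp94), the Hsp90 of the endoplasmic reticulum, stood at 928, 969 and 943 CPM in the controls, 847, 920 and 903 at 1.5 h, 877, 880 and 845 at 3 h and 693, 793 and 698 at 6 h. Every treated library lay below every control, and Hsp90b1 fell by 0.38 ± 0.12 at 6 h (edgeR adjusted p = 0.0318). The call was lost without any 1 control or without treated replicate 1 or 3 (0.0254 to 0.0992) and with the replicate block (0.0506).

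The promoters of Hsp90b1 and Dnajc3 are shown because they are the members whose windows held the letters of the endoplasmic reticulum stress element (CCAAT followed at a fixed distance by CCACG), found in 5.26% of the 38 member windows and 0.0657% of all windows. Capitals mark the element on either strand, which contains CCAAT. The stretches are the 180 and 140 bases before the start.
Hsp90b1 (chr7:23012294-23012473, minus strand): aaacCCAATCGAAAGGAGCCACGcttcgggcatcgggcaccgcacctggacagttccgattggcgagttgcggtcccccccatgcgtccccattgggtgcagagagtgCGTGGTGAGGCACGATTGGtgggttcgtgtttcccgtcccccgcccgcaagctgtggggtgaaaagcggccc
Dnajc3 (chr15:102432527-102432666, plus strand): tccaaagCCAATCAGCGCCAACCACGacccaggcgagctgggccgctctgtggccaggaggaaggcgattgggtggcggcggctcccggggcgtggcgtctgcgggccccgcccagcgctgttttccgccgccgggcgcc

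Dnajc3 (P58IPK), a J protein of the endoplasmic reticulum, fell together with Hsp90b1 at 6 h. It stood at 87.0, 86.0 and 91.4 CPM in the controls, 70.3, 66.7 and 81.8 at 1.5 h, 61.8, 68.1 and 71.5 at 3 h and 63.9, 59.4 and 57.7 at 6 h. Every treated library lay below every control. Dnajc3 fell by 0.39 ± 0.11 at 3 h (edgeR adjusted p = 0.0270) and by 0.55 ± 0.11 at 6 h (adjusted p = 0.00383). The 3 h call was lost without any 1 control or without treated replicate 1 or 2 (0.0149 to 0.112), and the 6 h call passed under all 17 alternatives. Of the 6 members assigned to the endoplasmic reticulum, 4 fell at 6 h (Hspa13, Hsp90b1, Dnajb14 and Dnajc3), 1 rose (Dnajc16) and Dnajb9 was not called (66.7% lower and 16.7% higher, beside 11.8% and 18.7% of all genes), with a median log2 fold change of −0.42. The list used for this assignment left out Dnajc14, which is also of the endoplasmic reticulum membrane and rose at 6 h, so these shares depend on the list. It held 13 genes, and Hspa5, Dnajb11 and Dnajc10 were among those not in the table. Dnajb9 (ERdj4), a target of the unfolded protein response, stood at 34.4, 30.8 and 37.8 CPM in the controls, 41.7, 37.8 and 41.5 at 1.5 h, 71.4, 59.0 and 35.3 at 3 h and 31.6, 43.9 and 40.0 at 6 h. Its log2 fold change at 3 h was 0.68 ± 0.23 (edgeR adjusted p = 0.0525, DESeq2 adjusted p = 0.0269), with replicate 3 inside the control range.

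Among the small heat shock proteins Hspb1 (Hsp27), which holds unfolded proteins and binds actin, rose at 1.5 h. It stood at 329, 332 and 298 CPM in the controls, 596, 577 and 392 at 1.5 h, 393, 389 and 396 at 3 h and 346, 349 and 404 at 6 h. Every treated library lay above every control. Hspb1 rose by 0.71 ± 0.16 on the log2 scale at 1.5 h (edgeR adjusted p = 0.0382), and its values at 3 and 6 h were 0.30 ± 0.16 and 0.20 ± 0.16 (adjusted p = 0.185 and 0.349). With library size scaling the later values were −0.01 and −0.03 and the 1.5 h value was 0.63 (edgeR adjusted p = 0.0658). The 1.5 h call was also lost without any 1 control or without treated replicate 1 or 2 (0.000351 to 0.166), with the replicate block (0.0783), in the fit of these 2 groups (0.0864), with scaling by depth (0.0599) and with both forms of limma-trend (0.0736 and 0.0742). Hspb8, the partner of BAG3, stood at 518, 511 and 409 CPM in the controls, 684, 652 and 482 at 1.5 h, 775, 704 and 548 at 3 h and 456, 692 and 688 at 6 h. All 3 libraries at 3 h exceeded the controls, but the log2 fold change of 0.50 ± 0.21 was not called (edgeR adjusted p = 0.114). Hspb6 (Hsp20), a small heat shock protein of muscle and brain, stood at 54.0, 48.0 and 46.6 CPM in the controls and 69.2, 63.4 and 57.6 at 1.5 h (0.36 ± 0.14, edgeR adjusted p = 0.193), 48.1, 51.1 and 61.4 at 3 h, and 58.6, 43.9 and 50.9 at 6 h.

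J proteins were called in both directions. Of the 23 genes, 3 rose (13%, beside 13.5% of all genes) and 5 fell (21.7%, beside 7.94%) at 3 h, and 5 rose (21.7%, beside 18.7%) and 6 fell (26.1%, beside 11.8%) at 6 h, with median log2 fold changes of −0.03 and 0.09. Dnajb5, a class B partner of Hsp70, was the one member that rose at all 3 times. It stood at 43.5, 54.3 and 47.3 CPM in the controls, 89.5, 93.9 and 63.5 at 1.5 h, 109, 127 and 114 at 3 h and 80.3, 96.8 and 105 at 6 h. Every treated library lay above every control, and replicate 3 at 3 h and replicate 1 at 6 h lay with or near the others of their group. Dnajb5 rose by 0.77 ± 0.16, 1.27 ± 0.17 and 0.96 ± 0.17 (edgeR adjusted p = 0.0318, 0.000631 and 0.00202). The calls at 3 and 6 h passed under all 17 alternatives each, and the 1.5 h call was lost without any 1 control or without treated replicate 1 or 2 (0.000892 to 0.148), when only these 2 groups were fitted (0.0754) and with both forms of limma-trend (0.0599 and 0.0594).

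Dnajc6 (auxilin), which with Hsp70 strips clathrin from endocytic vesicles and is mutated in a juvenile form of parkinsonism, had the largest rise of any member at 6 h. It stood at 8.90, 9.78 and 9.07 CPM in the controls, 7.45, 12.6 and 11 at 1.5 h, 14.8, 19.1 and 13.6 at 3 h and 25.1, 40.6 and 38.4 at 6 h. The 3 h libraries lay above the controls and the 6 h libraries above those of 3 h. Dnajc6 rose by 0.78 ± 0.24 at 3 h (edgeR adjusted p = 0.0447) and by 1.91 ± 0.25 at 6 h (adjusted p = 0.000460). The 6 h call passed under all 17 alternatives. The 3 h call was lost with library size scaling (0.142), scaling by depth (0.124), no filter (0.0507) and both forms of limma-trend (0.157 and 0.145), and without any 1 control or treated replicate 1 or 2 (0.0341 to 0.183).

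Dnajc21, a J protein that serves the assembly of the large ribosomal subunit, stood at 16.9, 15.1 and 15.4 CPM in the controls, 17.0, 18.2 and 17.4 at 1.5 h, 25.4, 25.4 and 24.8 at 3 h and 33.7, 29.9 and 28.6 at 6 h. The libraries of each group lay close together, those that stand apart included. Dnajc21 rose by 0.68 ± 0.12 at 3 h (edgeR adjusted p = 0.00364, but 0.10 with library size scaling, 0.0778 with scaling by depth, and 0.0632 and 0.0596 with the forms of limma-trend) and by 0.96 ± 0.12 at 6 h (adjusted p = 0.000377, passing under all 17 alternatives). Dnajc16, a membrane protein of the endoplasmic reticulum, stood at 53.8 ± 5.77 CPM (SD, n = 3) in the controls and 81.6 ± 2.48 at 6 h and rose by 0.60 ± 0.12 there (edgeR adjusted p = 0.00491). Dnajc14, also of that membrane, rose at 6 h by 0.43 ± 0.13 (edgeR adjusted p = 0.0266), from 74.4 ± 4.15 to 100.3 ± 9.26 CPM. With library size scaling, scaling by depth and the 2 forms of limma-trend the adjusted p was 0.0782, 0.0639, 0.0634 and 0.0681 for Dnajc16 and 0.372, 0.317, 0.325 and 0.332 for Dnajc14. The Dnajc14 call was lost with no filter (0.0643) and without any 1 of the 6 libraries (edgeR adjusted p of 0.0562 to 0.118), and its counts were not whole in all 12 libraries.

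**Figure D3:**
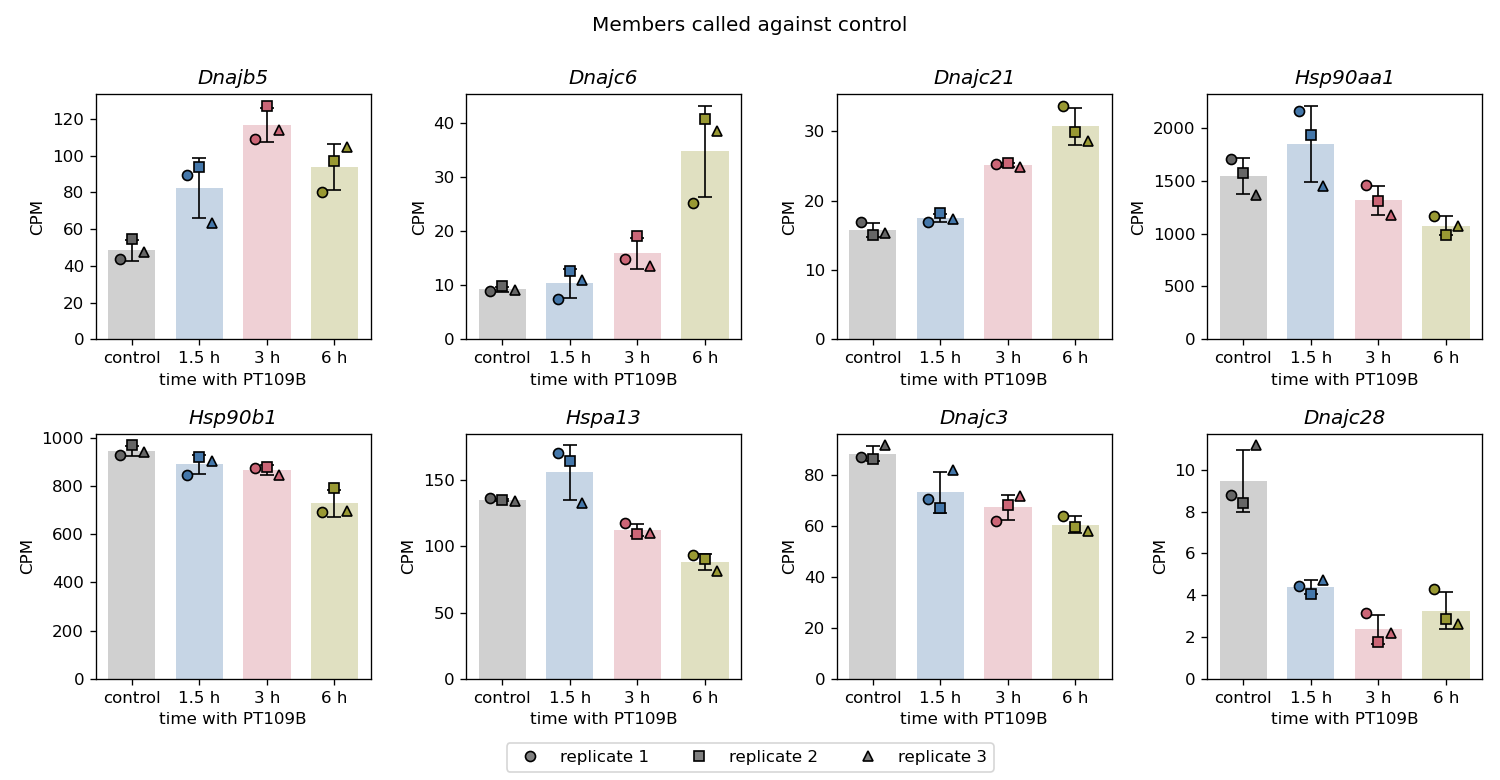
Bars show the mean CPM of each group, error bars the SD over 3 libraries and points the libraries by replicate for 8 members called against control. Dnajb5, Dnajc6 and Dnajc21 lie above the controls in every library at 3 and 6 h, and Hspa13, Hsp90b1, Dnajc3 and Dnajc28 lie below them in every such library; Hsp90aa1 does so at 6 h.

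Dnajc28 had the largest fall of any member. It stood at 8.82, 8.43 and 11.2 CPM in the controls, 4.43, 4.08 and 4.73 at 1.5 h, 3.15, 1.76 and 2.2 at 3 h and 4.28, 2.87 and 2.63 at 6 h. All 9 treated libraries lay below the controls. Dnajc28 fell by 1.99 ± 0.30 at 3 h (edgeR adjusted p = 0.00153) and by 1.53 ± 0.30 at 6 h (adjusted p = 0.00366), both passing under all 17 alternatives, and its value at 1.5 h was −1.10 ± 0.29 (adjusted p = 0.0719, and 0.00751 with DESeq2). Dnajb4, a class B J protein of the cytosol, stood at 48.8, 43.1 and 41.0 CPM in the controls, 54.5, 41.9 and 35.7 at 1.5 h, 33.8, 34.0 and 25.7 at 3 h and 17.9, 26.1 and 25.4 at 6 h. It fell by 0.94 ± 0.20 at 6 h (edgeR adjusted p = 0.00575), also under all 17 alternatives.

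Dnaja1, the class A J protein among the members, stood at 350, 341 and 360 CPM in the controls, 375, 360 and 334 at 1.5 h, 373, 347 and 245 at 3 h and 229, 257 and 266 at 6 h. Its 6 h libraries were all below the controls, and it fell by 0.48 ± 0.15 there (edgeR adjusted p = 0.0345). This call was lost without any 1 control or without treated replicate 1 (0.0332 to 0.0915) and with the replicate block (0.0528). Dnajb14, a membrane J protein of the endoplasmic reticulum, fell from 24.3 ± 1.08 to 16.4 ± 1.99 CPM at 3 h (by 0.57 ± 0.14, edgeR adjusted p = 0.0171) and to 17.6 ± 0.417 at 6 h (by 0.47 ± 0.14, adjusted p = 0.0252). The 3 h call was lost without control replicate 1 or 3 (highest adjusted p = 0.0696) and the 6 h call without any 1 control (highest 0.0871).

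Dnajc9, a J protein that binds histones H3 and H4 and supplies them in dividing cells, stood at 70.4, 73.3 and 66.3 CPM in the controls, 41.5, 40.6 and 55.9 at 3 h and 53.5, 41.9 and 39.1 at 6 h. It fell by 0.61 ± 0.16 at 3 h (edgeR adjusted p = 0.0242) and by 0.64 ± 0.16 at 6 h (adjusted p = 0.0126). Its 4 lowest libraries were those with marker sums of dividing cells of 122 to 158 CPM, and the part of that in the result was not tested. The 3 h call was lost without any 1 control or without treated replicate 1 or 2 (0.00366 to 0.0979). Dnajc13, which sorts receptors on endosomes and has been linked to Parkinson's disease, fell at 3 h, from 234 ± 9.16 to 176 ± 7.24 CPM (by 0.41 ± 0.12, edgeR adjusted p = 0.0379), and stood at 222 ± 16.7 CPM at 6 h. The difference between 3 h and 6 h was tested and not called. The 3 h call was lost without any 1 control or treated replicate 1 or 2 (0.0375 to 0.111) and with the replicate block (0.0603), and DESeq2 called Dnajc13 lower at 1.5 h too (adjusted p = 0.0414).

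The other J proteins were not called against control with edgeR. DESeq2 called Dnajb1 and Dnajb9 at 3 h and Dnajc17 at 6 h as well (adjusted p = 0.0483, 0.0269 and 0.0297), all higher. Dnajc12, which works with the aromatic amino acid hydroxylases, stood at 8.55 and 8.39 CPM in replicates 1 and 2 at 1.5 h and 17.3 in replicate 3, against 16.3, 18.1 and 18.9 in the controls, and at 26.0, 25.6 and 12.9 at 3 h. Dnajc22 stood at 5.94, 4.31 and 16.7 CPM at 1.5 h and 14.0, 4.52 and 4.23 at 6 h, against 12.2, 13.4 and 13.9 in the controls. In both genes the library that stands apart was the one near the controls at 1.5 h, and without the libraries that stand apart both fell at 1.5 h, with log2 fold changes of −1.07 and −1.37 (edgeR adjusted p = 5.11e-05 and 8.68e-05). Dnajc5, the cysteine string protein of synaptic vesicles, ranged from 199 to 308 CPM over all libraries, and its log2 fold changes were −0.28 ± 0.17, 0.09 ± 0.17 and 0.09 ± 0.17. Without those libraries the 1.5 h value of Dnajc5 was −0.36 (edgeR adjusted p = 0.000306). Dnajb2, a J protein enriched in neurons, had 6 h libraries of 89.9, 124 and 123 CPM, all above the controls at 77.8 to 81.1 (0.50 ± 0.19, edgeR adjusted p = 0.0672). Without the libraries that stand apart Dnajb2 rose at all 3 times, by 0.19, 0.36 and 0.56 (edgeR adjusted p = 0.0328, 0.000444 and 7.01e-06). In that fit 28.7%, 31.4% and 33.3% of all genes rose at 1.5, 3 and 6 h, and 30.5%, 39.6% and 41.8% fell. The fit leaves out the libraries that differed most from their groups. Its p-values for Dnajc12, Dnajc22, Dnajc5 and Dnajb2 are therefore no independent evidence of a change.

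**Figure D4:**
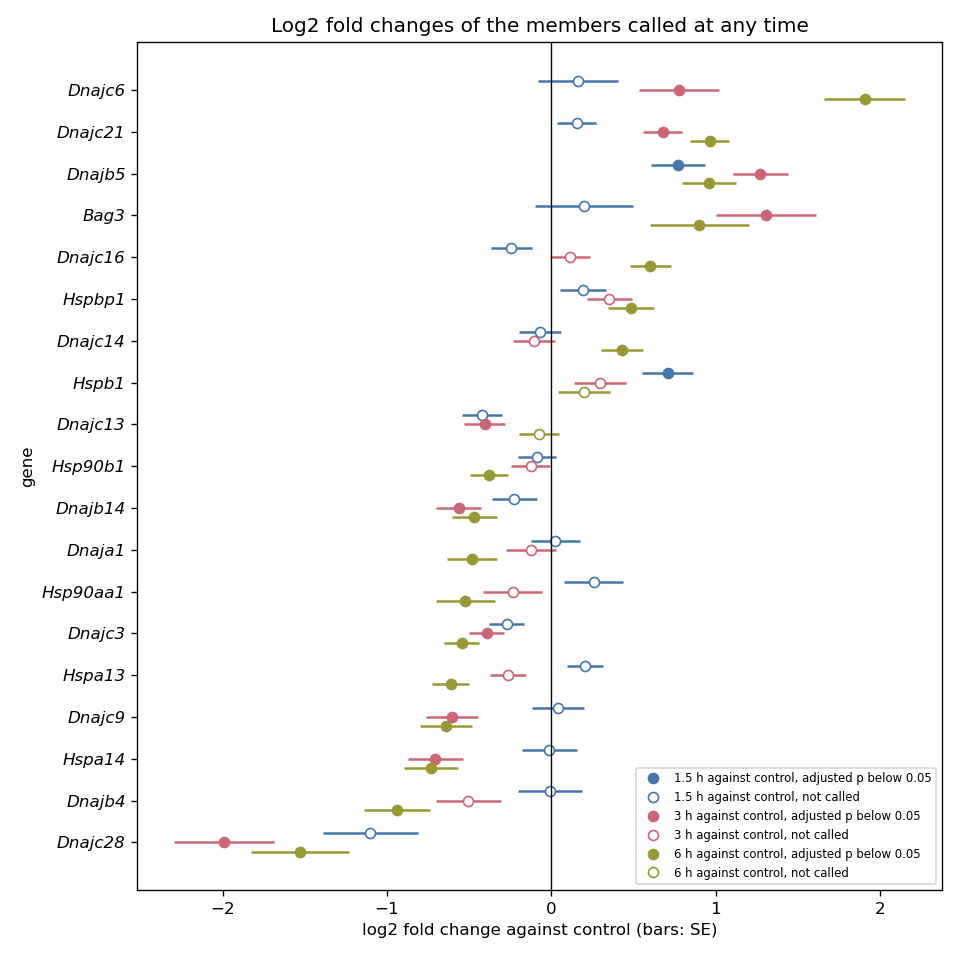
Log2 fold change against control with its SE for the 19 members called at any time, at 1.5, 3 and 6 h; filled points passed an adjusted p below 0.05 and open points did not. Dnajc6 reaches 1.91 at 6 h at the top and Dnajc28 reaches −1.99 at 3 h at the bottom, and Hspb1 is filled at 1.5 h only.

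Of the other co-chaperones, Hspbp1, which removes the nucleotide from Hsp70 in a manner distinct from BAG proteins, stood at 63.2, 69.6 and 54.1 CPM in the controls and 80.1, 89.4 and 91.7 at 6 h, and rose by 0.48 ± 0.14 (edgeR adjusted p = 0.0242). The call was lost with library size scaling (0.128), scaling by depth (0.0912) and both forms of limma-trend (0.0764 and 0.0768), and without control replicate 1 or 3 or treated replicate 2 or 3 (0.0189 to 0.0992). Bag2, an inhibitor of the ubiquitin ligase CHIP, stood at 29.1, 30.2 and 21.7 CPM in the controls, 43.3, 41.6 and 18.1 at 1.5 h, 40.3, 31.9 and 16.0 at 3 h and 19.0, 37.8 and 34.1 at 6 h. The library that stands apart was the lowest of each treated group, and Bag2 was not called. Hspbap1, a binding partner of Hspb1, stood at 9.86 to 12 CPM in the controls and 12.9 to 17.3 at 6 h (0.47 ± 0.29, edgeR adjusted p = 0.231).

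Grouped by compartment, the 10 members of the heat-inducible cytosolic and nuclear set showed calls in both directions. The set was listed with 14 genes. Hspa1a and Hspa8 were left out by the rule, and Hspa1b and Hsp90ab1 were not in the table. Counts below therefore leave out Hspa1a, which was called higher at 1.5 and 3 h as given above. At 3 h 1 of them was called (Bag3, higher, 10% beside 13.5% of all genes), with a median log2 fold change of 0.39, and at 6 h 1 rose (Bag3, 10% beside 18.7%) and 3 fell (Hsp90aa1, Dnaja1 and Dnajb4, 30% beside 11.8%), with a median of 0.24. Without adjustment 3 passed as higher and 1 as lower at 3 h. With library size scaling these medians were 0.06 and 0.01, 1 rose and 3 fell at 3 h (10% and 30%, beside 6.85% and 19.9% of all genes), and 0 rose and 3 fell at 6 h. Without the libraries that stand apart, 7 rose and 1 fell at 3 h, beside 31.4% and 39.6% of all genes. At 6 h 5 rose and 3 fell in that fit, beside 33.3% and 41.8%. Of the 4 mitochondrial members, Dnajc28 fell at 3 and 6 h with edgeR, and Hspa9, Hspe1 and Dnajc4 were not called with it. DESeq2 also called Hspa9 at 3 h. Without the libraries that stand apart Hspa9 and Hspe1 rose at both 3 and 6 h, while at 1.5 h Hspa9 rose and Dnajc4 and Dnajc28 fell. Of all genes, 28.7% rose and 30.5% fell at 1.5 h in that fit. Dnajc4 stood at 6.43 to 7.28 CPM in the controls and 8.0 to 9.76 at 6 h (0.42 ± 0.24, edgeR adjusted p = 0.200).

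Differences between times were tested in the same fit. From 1.5 h to 3 h, 3 members rose (7.14%, beside 12.1% of all genes): Bag3 by 1.11 ± 0.30, Dnajb1 by 0.95 ± 0.30 and Dnajc21 by 0.52 ± 0.12 (edgeR adjusted p = 0.0304, 0.0465 and 0.0176). The Dnajb1 groups overlapped. Over the same interval 3 members fell (7.14%, beside 8.23%): Hspa14 by 0.69 ± 0.17, Dnajc9 by 0.64 ± 0.16 and Hspa13 by 0.47 ± 0.11 (edgeR adjusted p = 0.0205, 0.0226 and 0.0195). From 3 h to 6 h Dnajc6 rose by 1.13 ± 0.24 and Dnajc14 by 0.54 ± 0.13 (edgeR adjusted p = 0.0316 and 0.0431), or 4.76% of members beside 2.33% of all genes, and 0 members fell, beside 1.72%. Without adjustment 3 members passed as lower from 3 h to 6 h, and DESeq2 called 3 members higher and 2 lower. These calls are sensitive to single libraries. Without replicate 1 or 2 at 1.5 h 0 members were called from 1.5 h to 3 h, without replicate 1 or 2 at 3 h 1 was called each, and without replicate 3 at 1.5 h or at 3 h 12 and 17 were called. From 3 h to 6 h 0 were called without replicate 1 or 2 at 3 h or replicate 2 or 3 at 6 h, 1 without replicate 1 at 6 h and 6 without replicate 3 at 3 h.

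Per length of transcript, on the deposited FPKM scale, the members of the untreated culture spanned a wide range. Hsp90aa1 was highest at 438 ± 49.4 FPKM (SD, n = 3), followed by Hspb1 at 255 ± 15.7, Hsp90b1 at 229 ± 5.77, Hspb8 at 200.4 ± 26.1, Hspa9 at 149 ± 1.76, Hspa4 at 132 ± 4.46 and Dnaja1 at 124 ± 2.70. The control libraries of each of these 7 genes lay above all those of the next in order. Bag6, Bag3, Hspe1, Dnajc5 and Dnajc7 came next at 72.5 to 60.6 FPKM, and neighbours among these 5 overlapped. Dnajc6 stood at 1.30 ± 0.108 FPKM, Dnajb3, Dnajb13 and Hspa1l were lowest at 0.823, 0.415 and 0.281, and the last pair overlapped. The genes with the largest fold changes at 3 and 6 h, Dnajc28 and Dnajc6, were thus among the members with low levels.

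**Figure D5:**
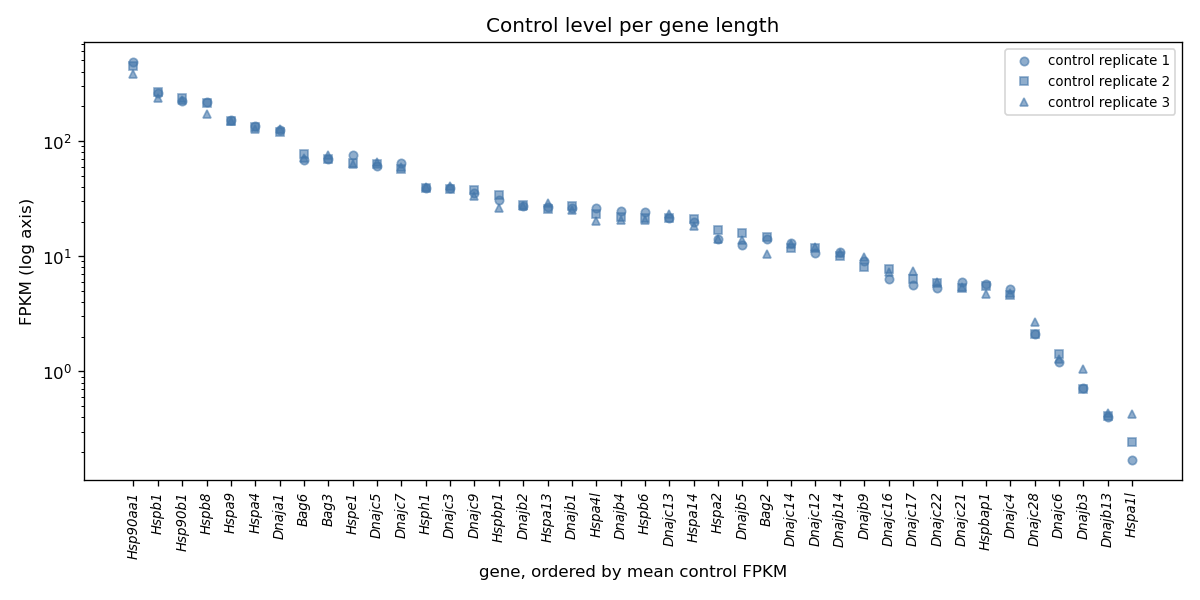
Points are the FPKM values of the 3 control libraries for each member, on a log axis, ordered by their mean. Hsp90aa1, Hspb1, Hsp90b1 and Hspb8 lie at 200 FPKM or more on average, and Dnajb3, Dnajb13 and Hspa1l lie below 1 on average.

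Genes that work with heat shock proteins but fall outside the rule were read from lists, whose counts stand beside the shares of all genes called (13.5% higher and 7.94% lower at 3 h, 18.7% and 11.8% at 6 h). Of the heat shock factors Hsf2 was in the table, at 85.8 ± 2.85 CPM in the controls and 128 ± 41.7 at 3 h, and was not called (0.58 ± 0.21, edgeR adjusted p = 0.0707). Of 9 Hsp90 co-chaperones tested, 0 rose at any time, while Fkbp5, an immunophilin of steroid receptor complexes, fell at 3 h by 0.69 ± 0.16 (edgeR adjusted p = 0.0133). At 6 h 3 of the 9 fell: Ahsa2, a relative of the Hsp90 activator Aha1, by 1.38 ± 0.23, Chordc1 by 0.89 ± 0.26 and Rpap3, an adaptor of Hsp90 for large assemblies, by 0.42 ± 0.13. Without adjustment 2 of the 9 passed as higher at 3 h, and DESeq2 called 0 higher at any time. Among the Hsp70 co-factors, Grpel2, a nucleotide exchange factor of mitochondrial Hsp70, rose at 6 h by 1.00 ± 0.20 (edgeR adjusted p = 0.00396). Of 3 chaperonin and prefoldin genes and at all 3 times 0 were called, with 1 unadjusted at 1.5 h and 1 at 3 h, and 0 by DESeq2.

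Several other genes known to answer to heat and proteotoxic stress rose. Of all genes, 1.95%, 13.5% and 18.7% rose at 1.5, 3 and 6 h and 1.37%, 7.94% and 11.8% fell. Of 13 tested, 3 rose at 1.5 h, 8 at 3 h and 6 at 6 h and 0 fell, with median log2 fold changes of 0.09, 1.34 and 0.82, and unadjusted 1 passed as lower at 1.5 h and 0 later, with 0 lower by DESeq2. Ppp1r15a (Gadd34), which restarts translation after stress, rose by 2.64 ± 0.28, 2.80 ± 0.29 and 2.53 ± 0.28. Zfand2a, an arsenite-inducible partner of the proteasome, rose at 3 h by 2.35 ± 0.43, Hmox1, haem oxygenase, by 2.16 ± 0.55 and Sqstm1, the autophagy receptor p62, by 1.34 ± 0.34. The 3 h libraries of these genes spread widely, at 601 ± 309, 3631 ± 2154 and 3316 ± 1376 CPM (SD, n = 3). Their controls stood at 118 ± 2.42, 810 ± 170 and 1312 ± 130 CPM. Ppp1r15a stood at 352 ± 151 CPM at 3 h but 292 ± 9.92 at 6 h. Of 19 endoplasmic reticulum stress genes 1, 4 and 4 rose at the 3 times and 0 fell (2 passed unadjusted as lower at 1.5 h and 0 later, 0 by DESeq2). Chac1, a glutathione-degrading enzyme induced by Atf4, rose at each time, by 2.68 ± 0.63 at 1.5 h, and Xbp1, the transcription factor of the unfolded protein response, by 0.69 ± 0.10 at 3 h and 0.86 ± 0.10 at 6 h. At 6 h Chac1 stood at 15.9 ± 14.3 CPM and Xbp1 at 214 ± 16.5 (SD, n = 3). Of 7 mitochondrial quality control genes, Lonp1 rose at 3 h (0.88 ± 0.26), with 358 ± 128 CPM there (SD, n = 3). At 6 h Clpp rose (0.78 ± 0.24) and Clpx and Yme1l1 fell (by 0.46 ± 0.12 and 0.47 ± 0.14). Of 9 proteasome genes Psmb2 rose at 3 h (0.51 ± 0.15) and Psmd11 at 6 h (0.79 ± 0.22). How these listed genes depend on single libraries or on scaling is not given here.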

How the data were processed

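Total RNA of 12 libraries was extracted with TRIzol and made into libraries with the NEBNext Ultra RNA kit, per the labels' protocols. The deposited table gives for each gene an estimated count per library and an FPKM value, per the file headers. The submitters' processing notes name StringTie 2.2.1. Which aligner, genome build or annotation was used is not given in the sources used here. Some values (9.49%, in 1343 genes) were not whole numbers, so counts were rounded.

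Counts were tested with edgeR 4.0.16 in R 4.3.3: filterByExpr removed 230 genes, and 9491 were scaled by TMM and tested by robust quasi-likelihood in a joint fit of the 12 libraries by group. P-values were adjusted by Benjamini-Hochberg over all genes. The log2 fold change (prior count 0.125) divided by the root of F gave the SE. The test was checked on simulated counts. These had the same spread for every gene and no library that stands apart. The check therefore does not show how the test behaves with such libraries. Depth allowed every member to be tested. The table holds part of the rat genes, so adjusted p-values refer to that set.

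The members, gene lists, marker lists and tests were chosen with earlier results of these data known. Values in every library are given for members called with a log2 fold change of at least 1 in size and for a set of main chaperone genes (20 of its 30 genes are members); others by range or fold change. Lists outside the rule are given mostly as counts, with values for some of their called genes. One result from these lists is not reported here.

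Alternatives were RLE and library size scaling, no filter, CPM of at least 2 in 3 libraries, a replicate block, fits of 2 groups, DESeq2 1.42.0, limma-trend (limma 3.58.1) on log2(FPKM + 1) and log2(FPKM + 0.1), leaving out the 3 libraries that stand apart, and each replicate left out in turn. A scaling by the ratio of count to FPKM was added after seeing the data. Promoter windows are from RefSeq GRCr8; Dnajb4, Dnajc12, Dnajc22 and Hsp90aa1 were not matched.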

Additional observations from a re-analysis of the deposited data

Results flagged for a closer look

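Members whose level differed between 2 treated times by the test of that difference itself are given here with their values. Between 1.5 h and 3 h the log2 fold change was 1.11 for Bag3, 0.95 for Dnajb1, 0.52 for Dnajc21, −0.64 for Dnajc9, −0.47 for Hspa13 and −0.69 for Hspa14. Of these, the 2 groups overlapped for Dnajb1 (67.2 ± 3.83 against 130 ± 57.8 CPM, SD, n = 3), and the other 5 did not overlap. Without the 3 libraries that stand apart, the values were 1.34, 1.21, 0.47, −0.93, −0.62 and −0.96 in the same order. Between 3 h and 6 h the log2 fold change was 0.54 for Dnajc14 and 1.13 for Dnajc6, and 0.58 and 1.20 without those libraries.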

How the results depend on the processing

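All 29 calls of members against control kept their direction in each of their 17 alternatives, and 11 passed in all of them. The number of members called at 1.5 h was 2 and became 1 with the replicate block, 23 without the 3 libraries that stand apart, 0 when only the 2 groups were fitted (edgeR, 8 unadjusted), 5 with DESeq2, 1 (lower) with limma-trend on log2(FPKM + 0.1) and 2 (both lower, beside 0 higher) on log2(FPKM + 1), and 0 to 8 when 1 library was left out. At 3 h it was 10, 31 without those 3 libraries and 3 to 19 when 1 library was left out. At 6 h it was 17, 31 without those libraries and 10 to 18 when 1 was left out. From 1.5 h to 3 h it was 6, and 12 with library size scaling, scaling by depth and DESeq2, 11 with both forms of limma-trend, 31 without the 3 libraries, 0 in the fit of 2 groups (9 unadjusted), and 0 to 17 when 1 was left out. From 3 h to 6 h it was 2, and 1 with library size scaling, scaling by depth, no filter, the replicate block and both forms of limma-trend, 19 without the 3 libraries, 0 in the fit of 2 groups (5 unadjusted), 5 with DESeq2, and 0 to 6 when 1 was left out. Other alternatives stayed within 1.5 times of these counts. Apart from what the construction of a setting shows (fewer samples), the cause was not tested. Over all members and the 3 comparisons with control, 110 calls were lost and 123 gained across settings, and 138 uncalled values changed sign.

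Replicate numbers were not treated as pairs: deviations of libraries with the same number correlated from −0.66 to 0.60. With the block 9 members were called at 3 h and 14 at 6 h. Against control the block lost the calls of Hspb1 at 1.5 h (edgeR adjusted p = 0.0783), Dnajc13 at 3 h (0.0603) and Bag3, Dnaja1 and Hsp90b1 at 6 h (0.0714, 0.0528 and 0.0506).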
